A study of Mus musculus with 43 samples.

Results

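The subject is the response of mouse colon fibroblasts to autogramin-2 given alone, taken from the 4 libraries cultured with 1 µM autogramin-2 (A1) and the 4 cultured with vehicle (Ve), 8 of the 43 RNA sequencing libraries of the series. The libraries were chosen by their treatment labels and paired by the fibroblast line they came from (M3, M3(2), M1(2) and M11), each line having been derived from the colon of 1 wild-type C57B/6 mouse. M3 and M3(2) are listed as lines from 2-month-old males, while age and sex of M1(2) and M11 are not given in the sources used here. All 8 cultures were kept in medium with serum and treated for 7 days from replating, the vehicle being DMSO. The same 4 lines were also cultured with 4 µM regorafenib (R4), a multi-kinase inhibitor, and with 4 µM regorafenib plus 1 µM autogramin-2 (R4A1), and these 8 libraries were used only to see how the genes behaved when autogramin-2 was added to regorafenib. The labels give 1 library per line and treatment, so that p-values measure the spread between lines and no line has a repeated culture.

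Autogramin-2 is a small molecule that binds GRAMD1A, a protein of the endoplasmic reticulum that carries cholesterol from the plasma membrane and takes part in forming autophagosomes. Autophagy delivers cytoplasm and organelles to the lysosome for recycling, and sterol transport sets how much cholesterol the sensors of the endoplasmic reticulum see. Colon fibroblasts make the collagen-rich matrix around the crypts, secrete Wnt, BMP and chemokine signals to the epithelium, and can take on a contractile state.

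The values are CP20M, reads counted per gene and scaled to 20000000 per library without division by transcript length, so levels of different genes are not compared. The vehicle libraries of M3, M3(2), M1(2) and M11 held 8366392, 12825919, 9549476 and 11196565 reads, and the autogramin-2 libraries 8151404, 8175136, 11962931 and 7949965. One read was therefore worth 1.56 to 2.52 CP20M. In the sentences below, 4 values given for a treatment always follow the order M3, M3(2), M1(2), M11.

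The fibroblast label held for all 8 libraries. Of the 15 fibroblast markers 14 were measured well enough to test, and their summed level was 228490, 217439, 213066 and 278111 CP20M with vehicle against 246595, 219974, 206465 and 256450 with autogramin-2, with Col1a1 giving the most reads to the sum. No fibroblast marker was called by limma and 3 had an unadjusted p below 0.05, against 1.37% and 15.8% of all genes tested, and their median log2 fold change was -0.04. Of the 15 epithelial markers only Krt19 passed the filter, Krt8 and Cdx2 were at 0 in all 8 libraries, and Epcam did not exceed 3 CP20M. Glial genes were present and far more abundant in M11 and M1(2), with sums of 3582, 1881, 9979 and 27703 CP20M with vehicle and 3305, 1832, 11094 and 31355 with autogramin-2. Endothelial and macrophage genes were also present and are described with the genes they moved with.

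Autogramin-2 produced small shifts. Of 10558 genes tested (at least 200 CP20M in 2 or more of the 8 libraries), 99.8% lay within 1.5-fold of vehicle, 24 changed by 1.5-fold or more on average, and 0 by 2-fold or more. With line as a block, limma called 145 genes at an adjusted p below 0.05, or 1.37% of those tested, of which 56 were higher (0.53%) and 89 lower (0.843%) with autogramin-2. Their absolute log2 fold change ran from 0.18 to 0.79 with a median of 0.33. The combined threshold of an adjusted p below 0.05 and 1.5-fold left 14 genes (0.133%), 4 higher (0.0379%) and 10 lower (0.0947%). At an unadjusted p below 0.05 there were 1673 genes (15.8%), 542 higher (5.13%) and 1131 lower (10.7%). All 145 called genes moved in the same direction in the 4 lines, as did 863 of all genes in the upward direction (8.17%) and 1573 in the downward direction (14.9%). The calls rest on the pairing and on the model: without line in the model limma called 0 genes, with 93 at an unadjusted p below 0.05. With line as a block, 0 were called with all 19 fibroblast libraries in the fit (791 at an unadjusted p below 0.05), 0 with eBayes without trend (1529) and 4 with no filter on low values (2628).

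**Figure D1:**
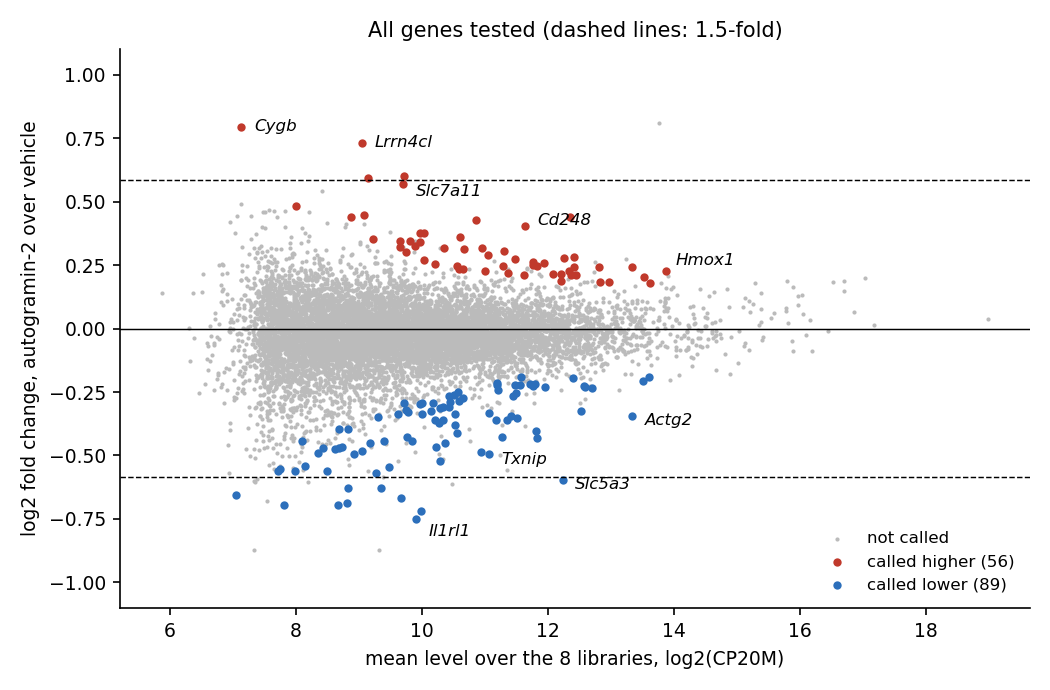
Log2 fold change with autogramin-2 over vehicle (vertical axis) against mean level over the 8 libraries in log2(CP20M) (horizontal axis), 1 point per gene tested, with called genes in red (56 higher) or blue (89 lower) and dashed lines at 1.5-fold. Nearly all points lie between the dashed lines, and the called genes are spread over the whole range of levels.

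Gramd1a, which encodes the target of autogramin-2 (chr7:31130127-31155896 in GRCm38), was at 825, 939, 780 and 1067 CP20M with vehicle and at 815, 830, 955 and 1123 with autogramin-2. It was lower in M3 and M3(2) and higher in M1(2) and M11, with a log2 fold change of 0.04 (95% interval -0.12 to 0.20, limma, adjusted p = 0.84). Gramd1b, a close relative with the same sterol-binding fold, stood at 378, 414, 602 and 1129 CP20M with vehicle and at 423, 443, 546 and 1153 with autogramin-2 (log2 fold change 0.04, interval -0.12 to 0.19, adjusted p = 0.869). Gramd1c lay between 22 and 47 CP20M in the 8 libraries and was not tested. For these transcripts the 2 groups overlapped, and a change of 1.5-fold in Gramd1a or Gramd1b lay outside the intervals. Of the 4 members of the wider Gramd family that were tested, 0 were called by limma and 0 had an unadjusted p below 0.05. Over all genes these shares were 1.37% and 15.8%, so 4 genes are too few to stand apart.

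Among the called genes that rose most were those of an oxygen-binding globin, of some surface and secreted proteins, and of a cystine transporter. Cygb, the cytoglobin gene (chr11:116645595-116654313), stood at 32, 66, 86 and 220 CP20M with vehicle and at 99, 118, 146 and 358 with autogramin-2. That is a 1.73-fold rise, or 0.79 ± 0.135 (log2 ± SE, n = 4 pairs, adjusted p = 0.0205), which was largest in M3, the line with the lowest vehicle level. Lrrn4cl, which encodes a membrane protein (chr19:8850768-8853909), went from 400, 524, 382 and 242 CP20M to 916, 739, 668 and 355 (log2 fold change 0.73 ± 0.104, adjusted p = 0.00949). Within each line both genes were above vehicle, while across lines the groups overlapped, since M11 differed so much from the others at baseline.

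Medag, a gene linked to adipocyte formation (chr5:149411749-149431723), was at 560, 559, 1121 and 476 CP20M with vehicle and at 913, 896, 1470 and 770 with autogramin-2 (log2 fold change 0.60 ± 0.067, adjusted p = 0.00306). Its value cannot be separated from that of Gm20488, which overlaps it on the same strand and rose by 0.59 on the log2 scale. Cd248, the endosialin gene that marks stromal fibroblasts and pericytes (chr19:5068078-5070682), stood at 2436, 2948, 2723 and 2839 CP20M with vehicle and at 3698, 3792, 3684 and 3324 with autogramin-2. Every autogramin-2 library lay above every vehicle library, with a mean of 2736.5 ± 220 CP20M with vehicle (SD, n = 4) and 3624.5 ± 206 with autogramin-2, a 1.32-fold rise (log2 0.40 ± 0.054, adjusted p = 0.00686). The other genes of this group were Igfbp2, which encodes an IGF-binding protein (0.45 on the log2 scale), Ltbp4, a matrix protein that holds latent TGF-beta (0.44), Npr3, the natriuretic peptide clearance receptor (0.43), Prl2c3 of the prolactin family (0.44) and the uncharacterized C77080 (0.38) and Gm43909 (0.48). Prl2c3 belongs to a family of near-identical genes among which reads can be split, and its rise was 0.05 in M3 against 0.52 to 0.63 in the other lines.

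**Figure D2:**
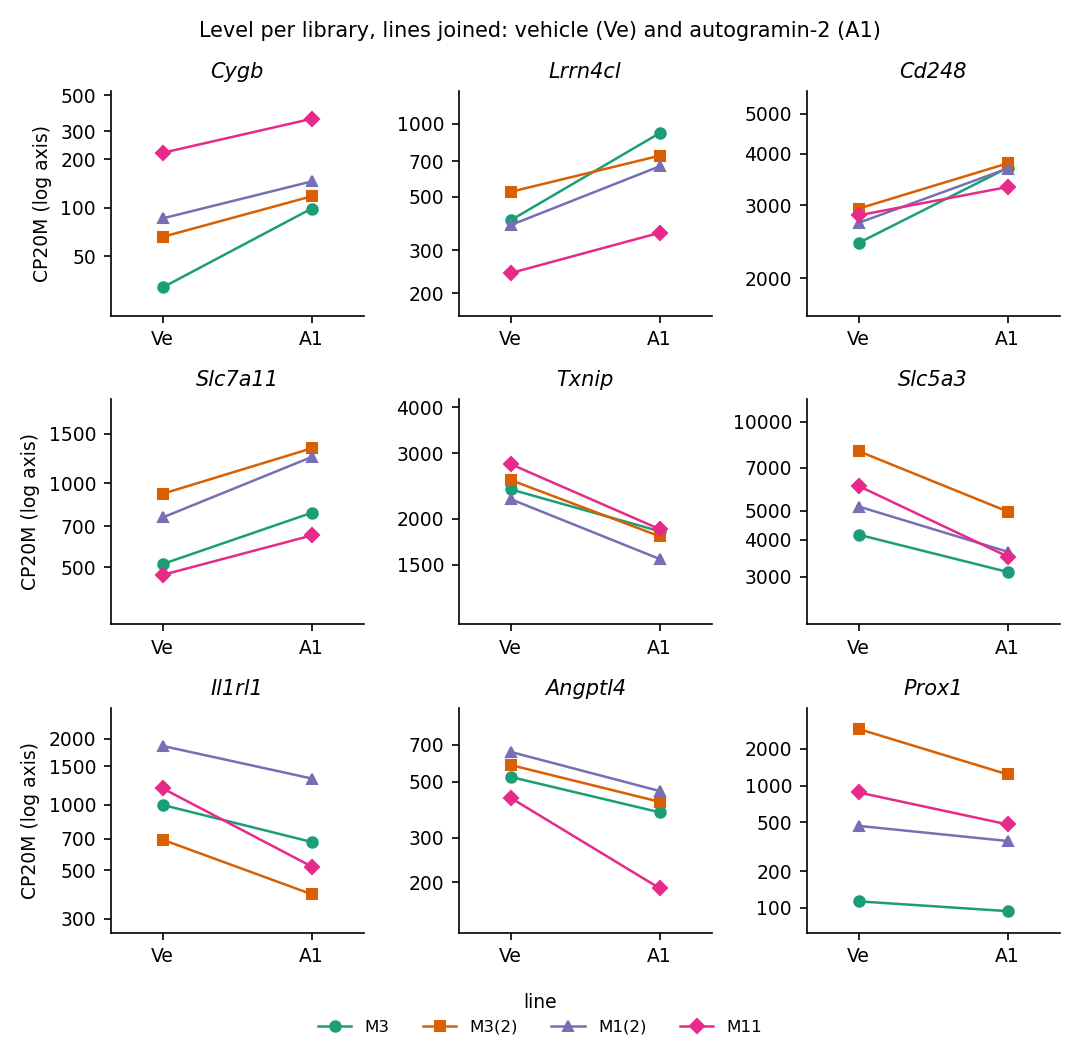
Level of 9 genes in CP20M (vertical axis, log scale) in each vehicle (Ve) and autogramin-2 (A1) library, with the 2 libraries of a line joined and the lines told apart by colour and symbol. Cygb, Lrrn4cl, Cd248 and Slc7a11 rise and Txnip, Slc5a3, Il1rl1, Angptl4 and Prox1 fall in all 4 lines, while the lines differ at baseline, most of all for Prox1.

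Slc7a11 encodes the exchanger that brings cystine into the cell for glutathione synthesis (chr3:49892526-50443614, minus strand), and it is a known target of both NRF2, the transcription factor of the antioxidant response, and ATF4, that of the amino acid stress response. It was at 514, 916, 754 and 470 CP20M with vehicle and at 783, 1331, 1239 and 650 with autogramin-2. The rise was 1.48-fold (log2 0.57 ± 0.063, adjusted p = 0.00306) and lay between 0.45 and 0.70 in the single lines. Of the 20 NRF2 target genes on the list, all tested, 4 rose against 0.53% of all genes, 0 fell and 18 had a positive log2 fold change, with a median of 0.13 against -0.02 over all genes, and 7 were higher in every line against 8.17% of all genes. Of these 4, Slc7a11 was called in all 4 fits that left out 1 line, Hmox1 in 2 and Gclm and Srxn1 in 0. Besides Slc7a11 the called genes were Hmox1, the heme-degrading oxygenase, Gclm, the regulatory subunit of the first enzyme of glutathione synthesis, and Srxn1, which repairs oxidized peroxiredoxins. Hmox1 was at 14721, 16729, 13957 and 10029 CP20M with vehicle and at 17193, 20930, 15338 and 11764 with autogramin-2 (1.17-fold, log2 0.23 ± 0.042, adjusted p = 0.0272). Gclm rose from 3866, 3654, 3159 and 2026 to 4061, 4605, 3697 and 2622 CP20M (log2 0.25, adjusted p = 0.0371), and Srxn1 was 0.21 higher on the log2 scale (adjusted p = 0.0489). For Gclm and Srxn1 the difference in M3 was 0.07 and 0.04, smaller than in the other lines, and in M3 the median of the whole list was -0.02, against 0.16, 0.17 and 0.21 in M3(2), M1(2) and M11.

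Of the 27 tested genes of the ATF4 list, Slc7a11 was the only one called, against 1.37% of all genes. Chac1, which degrades glutathione, and Atf3, a stress-induced transcription factor, had log2 fold changes of -0.37 (adjusted p = 0.0688) and 0.32 (adjusted p = 0.0934). The list median was -0.04, with 20 of the 27 members negative, but in the single lines it was 0.03, 0.02 and 0.05 in M3, M3(2) and M1(2) and -0.14 in M11. The promoters of Slc7a11, which is on both lists, and Gclm, which is on the NRF2 list, are shown because both genes rose. Capitals mark the amino acid response element core TGATGNAA in Slc7a11 (chr3:50443564-50443863, minus strand) and the antioxidant response element core TGACNNNGC in Gclm (chr3:122245307-122245606, plus strand), both searched on both strands in RefSeq sequences of GRCm38.p6 that run from 250 bases before to 50 bases after the start of the gene.
Slc7a11: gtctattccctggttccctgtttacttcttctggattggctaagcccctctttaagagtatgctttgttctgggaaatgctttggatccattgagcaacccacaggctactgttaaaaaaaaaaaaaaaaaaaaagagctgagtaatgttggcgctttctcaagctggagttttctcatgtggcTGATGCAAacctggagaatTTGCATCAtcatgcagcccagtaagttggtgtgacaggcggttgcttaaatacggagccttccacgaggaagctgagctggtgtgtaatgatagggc
Gclm: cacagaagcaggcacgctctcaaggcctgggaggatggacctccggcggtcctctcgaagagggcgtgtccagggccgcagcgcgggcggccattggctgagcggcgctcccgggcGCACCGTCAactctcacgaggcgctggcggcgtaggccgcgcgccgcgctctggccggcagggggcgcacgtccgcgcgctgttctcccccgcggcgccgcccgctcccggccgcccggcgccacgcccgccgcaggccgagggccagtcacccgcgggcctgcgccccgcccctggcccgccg
The Slc7a11 window held TGATGNAA at -66 to -59 and, on the opposite strand, at -47 to -40, and no TGACNNNGC. The Gclm window held TGACNNNGC on the opposite strand at -134 to -126, and Srxn1 also held 1 match. Among 32851 promoter windows of this length 3.97% held TGATGNAA and 12.4% held TGACNNNGC, and a match is a description of letters, not evidence that a factor binds there. No window was matched for Hmox1.

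Txnip fell by a similar amount in the 4 lines. It encodes the thioredoxin-interacting protein (chr3:96557957-96561883, plus strand), an arrestin-like protein that restrains glucose uptake and binds thioredoxin, and its transcription follows glucose through the factors MLXIP and MLXIPL, which bind carbohydrate response elements. Txnip was at 2398, 2541, 2256 and 2805 CP20M with vehicle and at 1848, 1791, 1555 and 1872 with autogramin-2. All 4 autogramin-2 libraries lay below all 4 vehicle libraries, and the log2 difference was -0.37, -0.50, -0.53 and -0.58 in the lines, with a mean of -0.50 ± 0.047 (0.71 of vehicle, adjusted p = 0.000997). The antisense gene Gm15441, named for this overlap after its values were seen, covers Txnip on the other strand. It was 0.44 lower on the log2 scale (-0.44, adjusted p = 0.00949), and as it is not stated whether reads were counted by strand, reads of the 2 genes cannot be told apart.

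The promoter of Txnip is given with its carbohydrate response element in capitals, a pair of E-box-like sequences with 5 bases between them that was searched on both strands.
Txnip: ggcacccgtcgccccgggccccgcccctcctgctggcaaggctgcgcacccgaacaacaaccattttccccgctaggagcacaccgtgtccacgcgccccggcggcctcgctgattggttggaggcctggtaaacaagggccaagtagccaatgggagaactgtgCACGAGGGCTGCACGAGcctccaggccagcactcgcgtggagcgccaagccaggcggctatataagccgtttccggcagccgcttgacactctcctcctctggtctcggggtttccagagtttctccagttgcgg
The window is chr3:96557707-96558006 on the plus strand, the match lies at -85 to -69, and 0.365% of all promoter windows (120 of 32851) held such an element. Arrdc4, the closest relative of Txnip and another glucose-induced arrestin, had no such element in its window, which held 1 match to TGACNNNGC. It stood at 510, 579, 629 and 468 CP20M with vehicle and at 415, 500, 469 and 245 with autogramin-2, lower in all 4 lines but not called (log2 -0.44 ± 0.104, adjusted p = 0.059). Of the 6 tested genes of the Txnip list 1 was called, against 1.37% of all genes, and Mlxip itself had a log2 fold change of -0.14 (adjusted p = 0.232).

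Among the genes that fell most were an interleukin receptor, transporters and secreted factors. Il1rl1, the receptor for IL-33 (chr1:40429570-40465415), was at 997, 691, 1858 and 1187 CP20M with vehicle and at 675, 389, 1318 and 521 with autogramin-2. It fell to 0.60 of vehicle (log2 -0.75 ± 0.094, adjusted p = 0.00623), most in M11 (-1.16), and the groups overlapped across lines because M1(2) was high in both. Slc5a3, the sodium-dependent transporter of the osmolyte myo-inositol (chr16:92058322-92087473), stood at 4158, 7953, 5176 and 6068 CP20M with vehicle and at 3114, 4979, 3643 and 3510 with autogramin-2 (log2 -0.59 ± 0.056, adjusted p = 0.000997). It shares its locus and strand with Mrps6, a mitochondrial ribosomal protein gene named for this overlap after its values were seen, which fell by 0.44 on the log2 scale with no overlap between groups, so reads of these genes cannot be fully separated.

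Angptl4, a secreted inhibitor of lipoprotein lipase induced by PPAR factors and fasting (chr17:33773750-33781830), was at 522, 582, 656 and 431 CP20M with vehicle and at 378, 416, 459 and 189 with autogramin-2. It fell to 0.65 of vehicle (log2 -0.63 ± 0.108, adjusted p = 0.0205). It was 1 of 3 genes that the study had picked out in these fibroblasts, for the combination against regorafenib alone. Its direction is therefore not independent evidence. The others, here against vehicle, were Spp1, the osteopontin gene (log2 -0.17, adjusted p = 0.37), and Slfn2, a schlafen family gene (log2 -0.30, adjusted p = 0.192). When autogramin-2 was added to regorafenib, Angptl4, Spp1 and Slfn2 were at -0.86, -0.74 and -1.18 (limma, adjusted p = 0.0503, 0.0499 and 0.00816). With autogramin-2 alone, Angptl4 was the only one called of the 15 tested genes of the PPAR and lipid droplet list, against 1.37% of all genes. Pdk4, the kinase that blocks pyruvate dehydrogenase, had a log2 fold change of -0.35 (adjusted p = 0.0723), and Plin3, a lipid droplet coat protein, 0.22 (adjusted p = 0.0506).

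Further genes with large decreases were Lrp2, the endocytic receptor megalin (log2 -0.72), Col10a1, a short-chain collagen (-0.69), Gxylt2, a glycosyltransferase acting on Notch (-0.69), Prox1, the transcription factor of lymphatic endothelium (-0.67), Ifi27l2b, of an interferon-induced family (-0.66), Atp1b1, the beta subunit of the sodium-potassium pump (-0.63), Kif26b, an unconventional kinesin (-0.57), and Gm37389 (-0.56). Their adjusted p lay between 0.00646 and 0.0465. Ifi27l2b was at 271, 255, 112 and 31 CP20M with vehicle and at 131, 172, 77 and 11 with autogramin-2. It passed the filter on low values only through the vehicle libraries of M3 and M3(2), so its selection favoured a fall. Its values in M11 rest on few reads. Gm37389 shares its locus and strand with Fabp9 and Pmp2, Kif26b and Gxylt2 each overlap unnamed genes on their own strand, as does Slc7a11, and Col10a1, Prox1, Atp1b1, Cygb, C77080, Npr3 and Gm43909 each overlap a gene on the other strand, so that reads could be shared there too. Lines differed widely for several of them. Lrp2 was at 2176, 2369, 321 and 168 CP20M with vehicle and at 1433, 1278, 263 and 66 with autogramin-2, and Atp1b1 differed by -0.98 in M3 and by -0.08 in M1(2). In M11 Gxylt2 went from 468 to 164 CP20M, a difference of -1.41, against -0.20 in M3.

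**Figure D3:**
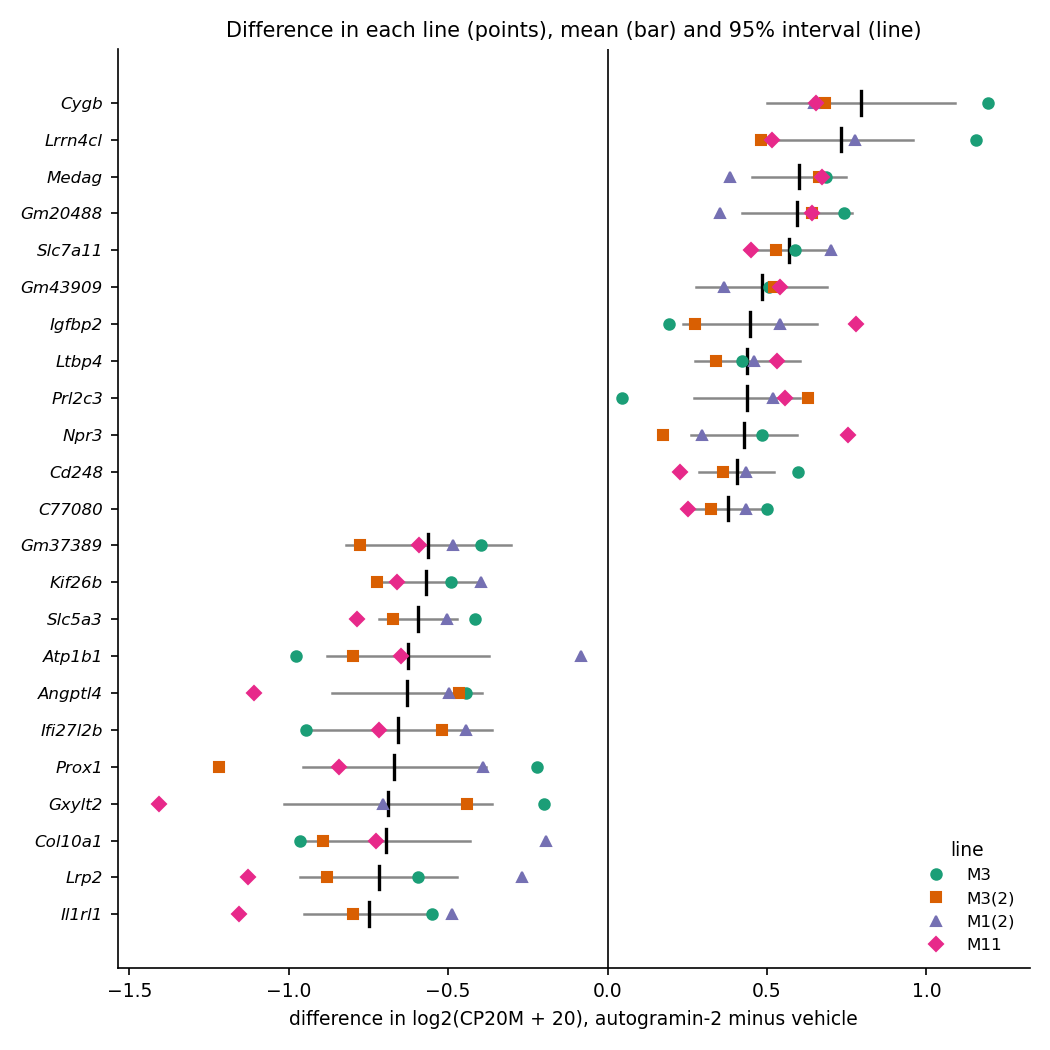
Difference in log2(CP20M + 20) between autogramin-2 and vehicle in each line (coloured symbols) for the 12 genes with the largest called rise and 11 of the 12 with the largest called fall, with the mean (black bar) and its 95% interval (grey line). All symbols of a gene lie on 1 side of 0, and M1(2) has the difference nearest to 0 in Atp1b1, Col10a1 and Lrp2.

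Of 27 tested matrix proteins other than collagens 2 rose, against 0.53% of all genes, and 1 fell, against 0.843%. Tnxb, which encodes the matrix glycoprotein tenascin-X, rose from 1461, 1872, 1460 and 728 to 1691, 2396, 1789 and 1110 CP20M (log2 0.36 ± 0.061, adjusted p = 0.0205), and Ecm1, a secreted matrix protein, rose by 0.21 on the log2 scale (adjusted p = 0.0358). Nid2, a basement membrane nidogen, fell from 1616, 1158, 2660 and 1447 to 1132, 1055, 2191 and 863 CP20M (log2 -0.41 ± 0.080, adjusted p = 0.032). Postn, the periostin gene, had a log2 fold change of 0.27 (adjusted p = 0.0609). The 20 tested collagens held 0 called genes, 7 with an unadjusted p below 0.05 (15.8% of all genes) and a median of -0.06, with values for Col11a1 of -0.45 (adjusted p = 0.0665), for Col5a2 of -0.18 (adjusted p = 0.0831) and for Col5a3 of 0.38 (adjusted p = 0.0847). Col10a1 is not on that list. Of 21 matrix proteases and inhibitors 3 fell (0.843% of all genes) and 0 rose (0.53%). The list median was -0.01, with 10 log2 fold changes positive and 11 negative. In every line 5 members were higher and 5 lower (8.17% and 14.9% of all genes), and at an unadjusted p below 0.05 4 were higher and 7 lower (5.13% and 10.7%). Those that fell were Mmp13, a collagenase (201, 496, 796 and 318 CP20M with vehicle, 123, 353, 634 and 222 with autogramin-2, adjusted p = 0.0259), Mmp10, a stromelysin (log2 -0.29, adjusted p = 0.0275), and Plat, tissue plasminogen activator (log2 -0.36, adjusted p = 0.0387). Timp3, a metalloprotease inhibitor, had a log2 fold change of 0.16 (adjusted p = 0.0918).

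Of 19 tested genes of the contractile apparatus 3 fell, against 0.843% of all genes, and 0 rose. Actg2, the gamma smooth muscle actin, was at 15938, 13367, 11090 and 5132 CP20M with vehicle and at 13448, 11499, 8599 and 3515 with autogramin-2 (log2 -0.34 ± 0.052, adjusted p = 0.014). Mylk, the myosin light chain kinase, stood at 3352, 3964, 2845 and 1831 CP20M with vehicle and at 3109, 3142, 2304 and 1178 with autogramin-2 (log2 -0.34, adjusted p = 0.032), and Cnn1, calponin, had a log2 fold change of -0.40 (adjusted p = 0.0382). All 3 decreases were largest in M11, and the groups overlapped because the lines differed more from each other than the treatments did. The list as a whole had a median of -0.07, with 6 of 19 members lower in every line against 14.9% of all genes. Actg2 and Cnn1 are also smooth muscle markers, and of the 7 smooth muscle and pericyte markers tested 2 fell and 1 rose (0.843% and 0.53% of all genes). The one that rose was Notch3, a receptor of mural cells (log2 0.34, adjusted p = 0.0176), while Des, Rgs5, Kcnj8 and Abcc9 stayed at or below 77 CP20M.

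Chaperones and other genes of the unfolded protein response lay slightly below vehicle on average. All 16 tested members had a negative log2 fold change, with a median of -0.15 against -0.02 over all genes, and 9 of 16 were lower in every line against 14.9% of all genes. The list median was -0.17 in M3, -0.16 in M3(2), -0.01 in M1(2) and -0.20 in M11. Of the 16 members 12 were lower at an unadjusted p below 0.05, against 10.7% of all genes, and 1 was called, against 1.37%. It was Dnajc3, a co-chaperone that inhibits eIF2alpha kinases, at 3677, 3734, 4103 and 3469 CP20M with vehicle and 3227, 2963, 3770 and 2886 with autogramin-2 (log2 -0.23 ± 0.044, adjusted p = 0.032). Hspa5, the main chaperone of the endoplasmic reticulum, was at 18663, 20061, 20012 and 14646 CP20M with vehicle and at 16510, 17916, 18941 and 11734 with autogramin-2 (log2 -0.18, adjusted p = 0.0682). Pdia4, a disulfide isomerase, and Dnajb9, a co-chaperone of Hspa5, had log2 fold changes of -0.19 (adjusted p = 0.0678) and -0.27 (adjusted p = 0.0825).

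Cell cycle genes were lower on average without any gene passing the test. Of 31 tested members 30 had a negative log2 fold change and 16 were lower in every line against 14.9% of all genes, with a list median of -0.31. By limma 0 were called, against 1.37% of all genes, while 20 were lower at an unadjusted p below 0.05 against 10.7% of all genes. Mki67, the proliferation marker, stood at 2310, 1681, 1328 and 1435 CP20M with vehicle and at 1647, 1300, 1209 and 506 with autogramin-2 (log2 -0.61, adjusted p = 0.0721). The size of the shift depended on the line: the list median was -0.31 in M3, -0.13 in M3(2), -0.07 in M1(2) and -0.90 in M11. Without M11 the median over the list was -0.15. Mcm3 and Mcm6, of the replicative helicase, had log2 fold changes of -0.56 and -0.45 (both adjusted p = 0.0762), and Cenpe, a kinetochore motor, -0.52 (adjusted p = 0.0934).

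**Figure D4:**
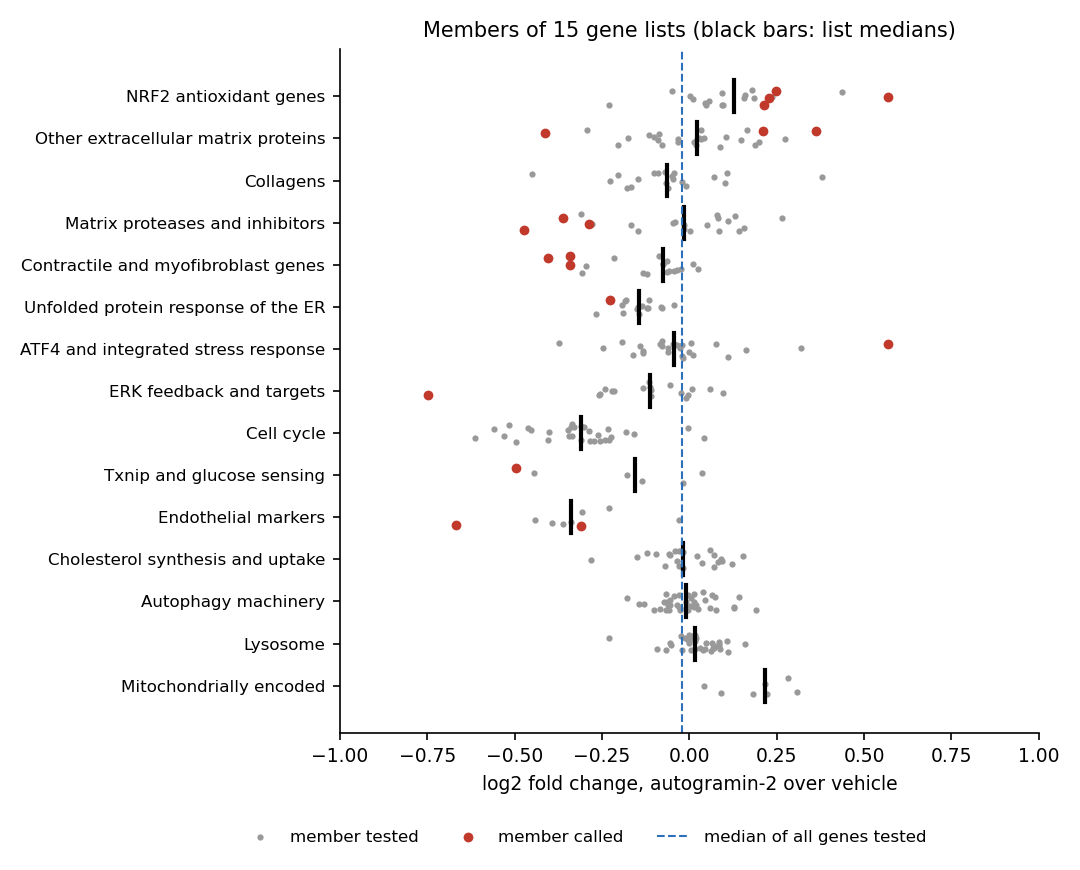
Log2 fold change with autogramin-2 over vehicle (horizontal axis) for the tested members of 15 gene lists, 1 point per gene, called members in red, list medians as black bars and the median of all genes as a dashed blue line. The called members of the NRF2 list lie to the right and those of the contractile, protease and endothelial lists to the left, while the cholesterol, autophagy and lysosome lists hold no red point and centre on the dashed line.

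Sterol, autophagy and lysosome genes lie closest to the known actions of autogramin-2, and their counts are to be read against the 1.37% of all genes that were called and the 15.8% at an unadjusted p below 0.05. Of 23 tested genes of cholesterol synthesis and uptake, which rise when the endoplasmic reticulum is short of sterol, 0 were called, 2 had an unadjusted p below 0.05 and the median was -0.02. The members with the smallest p included Stard4, a sterol carrier (log2 -0.28, adjusted p = 0.201). Stard4 differed by -0.10, -0.15 and -0.12 in M3, M3(2) and M1(2) and by -0.76 in M11. Fatty acid synthesis (13 tested, median -0.02) likewise held 0 called genes and 1 with an unadjusted p below 0.05. Among 15 genes of sterol efflux and transport 0 were called and 4 had an unadjusted p below 0.05, with Abcg1, a cholesterol exporter, at 216, 345, 195 and 131 CP20M with vehicle and 126, 221, 141 and 116 with autogramin-2, lower in every line (log2 -0.46, adjusted p = 0.0762), and Mylip, which degrades the LDL receptor, at a log2 fold change of -0.33 (adjusted p = 0.0874). Of these 15 genes 11 had a negative log2 fold change and 5 were lower in every line, against 14.9% of all genes. When autogramin-2 was added to regorafenib, 2 were called lower, against 2.25% of all genes. Abcg1 was called there (log2 -0.92, limma, adjusted p = 0.003).

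Of 39 tested genes of the autophagy machinery 0 were called and 4 had an unadjusted p below 0.05, and they spanned -0.18 (Uvrag) to 0.19 (Optn) with a median of -0.01. Sqstm1, the cargo receptor p62, was at 25701, 23808, 23889 and 18760 CP20M with vehicle and at 25444, 27587, 26089 and 21369 with autogramin-2 (log2 0.13, adjusted p = 0.205). The lysosome list (35 tested) had 0 called, 4 at an unadjusted p below 0.05 (15.8% of all genes) and a median of 0.02, from Gla at -0.23 (adjusted p = 0.0979) to Naglu at 0.16 (adjusted p = 0.178), both lysosomal hydrolases. On this list 24 members had a positive log2 fold change and 11 a negative one. In every line 7 were higher and 2 lower, against 8.17% and 14.9% of all genes. Among the 8 tested MiT/TFE factors and their Rag GTPase partners 0 were called and 1 had an unadjusted p below 0.05, and Rragd, a target of these factors, had a log2 fold change of 0.24 (adjusted p = 0.0934). These are transcript levels, and autophagic flux was not measured by them.

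The call counts of the signalling lists are likewise to be read against 1.37% of all genes. Of 18 ERK feedback genes and targets Il1rl1 was the only one called, the list median was -0.11 and 7 were lower in every line against 14.9% of all genes, with Epha2, a receptor kinase, at a log2 fold change of -0.22 (adjusted p = 0.0919) and Spry1, a feedback inhibitor, at -0.26 (adjusted p = 0.162). The 12 inflammatory cytokines, chemokines and receptors held only Il1rl1 as called, with a median of -0.13, and Cxcl12, a chemokine of stromal cells, was at 4609, 2031, 2183 and 2099 CP20M with vehicle and 4105, 1586, 1739 and 941 with autogramin-2 (log2 -0.50, adjusted p = 0.0603). Of 11 niche factors Wnt5a fell, from 4736, 3521, 3540 and 3523 to 3929, 3191, 3177 and 2826 CP20M (log2 -0.22 ± 0.043, adjusted p = 0.0321), and Bmp4 had a log2 fold change of -0.36 (adjusted p = 0.125). Wnt5a is also the only called member of the 11 colon fibroblast subtype markers. Among the 4 tested targets of the aryl hydrocarbon receptor, Cyp1b1, a xenobiotic-metabolizing enzyme, fell by 0.24 on the log2 scale (-0.24, adjusted p = 0.0275). No gene was called among 16 immediate early genes (median -0.02), 24 p53 targets (0.02), 21 TGF-beta targets (-0.04), 23 interferon-stimulated genes (0.05), 28 genes of hypoxia and glycolysis (-0.03) and 16 YAP targets (-0.06), in which 5, 0, 5, 6, 8 and 4 had an unadjusted p below 0.05, against 15.8% of all genes. Their members nearest the threshold included Klf4 (0.24, adjusted p = 0.0674), Id2 (-0.55, adjusted p = 0.0609), Ifit3 (0.19, adjusted p = 0.157), Egln3 (-0.33, adjusted p = 0.0954) and Ajuba (-0.20, adjusted p = 0.0847).

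Of the 11 endothelial markers 9 were tested, all 9 had a negative log2 fold change, 5 were lower in every line against 14.9% of all genes and 2 were called lower against 0.843%, with a list median of -0.34. Prox1 was at 113, 2899, 468 and 878 CP20M with vehicle and at 94, 1234, 352 and 481 with autogramin-2 (adjusted p = 0.0325), and Cdh5, VE-cadherin, which gave the most reads of the list, at 483, 3486, 778 and 1119 with vehicle and 400, 2442, 708 and 884 with autogramin-2 (log2 -0.31 ± 0.065, adjusted p = 0.0401). Pecam1 had the same log2 fold change of -0.31 (adjusted p = 0.0673). The summed level of the list was 1725, 17998, 3412 and 4931 CP20M with vehicle and 1450, 10943, 3252 and 3539 with autogramin-2, lower in all 4 lines and many times higher in M3(2) than in M3. Flt4, the VEGF-C receptor of lymphatic endothelium (chr11:49609263-49652739), fell with them, from 1028, 3122, 1226 and 888 to 891, 2146, 1057 and 725 CP20M (log2 -0.31 ± 0.062, adjusted p = 0.036). It was the only called member of the 22 tested receptors and ligands of the regorafenib target list, against 1.37% of all genes. On that list Pdgfra had a log2 fold change of -0.38 (adjusted p = 0.0979). Pdgfra differed by -0.06, -0.12, -0.42 and -0.92 in M3, M3(2), M1(2) and M11. In bulk libraries fewer endothelial cells and less of their RNA per cell cannot be told apart.

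The 18 macrophage and leukocyte markers, with Itgam listed under 2 identifiers and both counted, summed to 2900, 1300, 2200 and 7591 CP20M with vehicle and 2274, 955, 2292 and 4832 with autogramin-2, lower in 3 of 4 lines. For this and the following marker lists the shares over all genes were 1.37% called and 15.8% at an unadjusted p below 0.05. Of the macrophage and leukocyte markers 3 were tested, 0 called and 1 at an unadjusted p below 0.05, with Lyz2, which gave the most reads of the list, at a log2 fold change of -0.40 (adjusted p = 0.0934), while Cd3e was at 0 in all 8 libraries. None of the 8 glial and neuronal markers tested was called (median 0.08, with 2 at an unadjusted p below 0.05). Mesothelial markers were low, with Krt19 the only one tested and Msln at no more than 267 CP20M. Y-linked transcripts were present in all 4 lines and Xist stayed at or below 3 CP20M, with 0 of the 4 sex-linked genes tested called and 0 at an unadjusted p below 0.05. The part of endothelial and macrophage cells in the other decreases was not tested.

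Library properties were compared as well. Mitochondrial transcripts took 0.73, 0.776, 1.17 and 0.965% of the vehicle libraries and 0.83, 1.02, 0.872 and 1.36% of the autogramin-2 libraries, and the 7 tested mitochondrial genes had a median log2 fold change of 0.22 with 0 called and 2 at an unadjusted p below 0.05, against 1.37% and 15.8% of all genes. Their median in the lines was 0.06, 0.39, -0.28 and 0.50, so that M1(2) went against the other lines, as it also did in depth, being the only line with more reads in the autogramin-2 library than in the vehicle library. mt-Co1 showed the same order, at 22160, 20225, 26412 and 24538 CP20M with vehicle and 24082, 29311, 23660 and 38001 with autogramin-2 (adjusted p = 0.191). The part of mitochondrial content and depth in the results was not tested.

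The lines differed from each other far more than the treatments did. The first principal component of the 8 libraries held 71.8% of the variance, the second 12.7% and the third 8.41%, and at least 98.8% of each lay between lines. The fourth, with 3.11% of the variance, separated autogramin-2 from vehicle in all 4 lines, and 86.4% of it lay between treatments. Line by line, the differences over all genes had an SD of 0.190 (M3), 0.184 (M3(2)), 0.164 (M1(2)) and 0.230 (M11) on the log2 scale, and the number of genes that moved by 1.5-fold or more was 107, 162, 52 and 305. Pearson's r between the differences of any 2 lines, across genes that are not independent replicates, ran from 0.129 (M3 and M1(2)) to 0.296 (M1(2) and M11), and 51.9% to 60.0% of genes had the same sign.

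Because the lines differed at baseline, few groups separated completely. Over all genes 27 were higher (0.256%) and 71 lower (0.672%) in every autogramin-2 library than in every vehicle library. Among the 145 called genes 11 did so, 6 higher and 5 lower. Besides Cd248 the higher ones, chosen after their values were seen, were Cdkn2a, which encodes the cell cycle inhibitors INK4A and ARF, Dusp10, a phosphatase of stress-activated MAP kinases, Numbl, an adaptor related to the Notch regulator Numb, Aldh4a1, a mitochondrial enzyme of proline breakdown, and Gm11175. The lower ones were Txnip and, also chosen after their values were seen, Gm15441, Mrps6, Sema5a, a semaphorin, and the long noncoding RNA Tug1. Dusp10 was at 670, 779, 868 and 828 CP20M with vehicle and at 881, 1045, 1087 and 997 with autogramin-2 (log2 0.34 ± 0.057, adjusted p = 0.0198). Numbl stood at 1356, 1404, 1314 and 1437 CP20M with vehicle and at 1605, 1649, 1624 and 1678 with autogramin-2, a small but even rise of 1.19-fold (adjusted p = 0.0272). Gm11175 lies antisense within Jund, a gene of the AP-1 factor family, and both rose, by 0.32 and 0.30 on the log2 scale, Jund being named for this overlap after its values were seen.

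In all, 6 called genes also passed the test in each of the 4 fits that left out 1 line: Il1rl1, Medag, Slc5a3, Slc7a11, Tor4a and Txnip, with Tor4a named for this after its values were seen. A further 10 passed in 3 of these fits, 40 in 2, 41 in 1 and 48 in 0. Of the called genes described above, Actg2, Cd248, Gm20488, Kif26b, Lrrn4cl and Npr3 passed in 3. Those that passed in 2 were Angptl4, Atp1b1, C77080, Cdkn2a, Cnn1, Cygb, Dusp10, Gm11175, Gm15441, Hmox1, Jund, Lrp2, Mmp13, Mrps6, Notch3, Plat, Prl2c3 and Tnxb. Cdh5, Col10a1, Cyp1b1, Dnajc3, Flt4, Ltbp4, Mmp10, Mylk, Nid2, Numbl, Prox1 and Sema5a passed in 1, and Aldh4a1, Ecm1, Gclm, Gm37389, Gm43909, Gxylt2, Ifi27l2b, Igfbp2, Srxn1, Tug1 and Wnt5a in 0. The number called fell to 7 without M3 and to 23 without M3(2), and was 117 without M1(2) and 84 without M11.

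The same drug was next followed in libraries that the first comparison did not use, those with autogramin-2 added to 4 µM regorafenib against 4 µM regorafenib alone, in the same 4 lines. In a limma fit of the 16 libraries with line as a block, 340 genes were called (3.22%), 102 higher (0.966%) and 238 lower (2.25%). Higher in every line were 1093 genes (10.4%) and lower in every line 1652 (15.6%). With TMM scaling the split was 195 higher and 174 lower. Without M1(2) limma called 0 genes (1313 at an unadjusted p below 0.05), and the number was 100 without M3(2), 40 without M11, 393 without M3 and 134 when these 8 libraries were fitted alone.

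Of the 145 genes called for autogramin-2 alone, 134 had the same sign when autogramin-2 was added to regorafenib (92.4%), against 62.6% of all genes tested. In both comparisons 40 genes were called, 27.6% of the first list and 11.8% of the second, all with the same sign. Across the 10558 genes, which are not independent replicates and come from the same lines, Pearson's r between the 2 sets of log2 fold changes was 0.509 and Spearman's rho 0.384, and their SD was 0.125 for autogramin-2 alone and 0.215 on top of regorafenib.

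Slc7a11 rose by 1.00 on the log2 scale when autogramin-2 was added to regorafenib (adjusted p = 0.006) and Txnip fell by 0.67 (-0.67, adjusted p = 0.0026). Slc5a3 was at -0.82 (adjusted p = 0.04), Kif26b at -1.15 (adjusted p = 0.043), Atp1b1 at -1.14 (adjusted p = 0.035) and Tnxb at 0.49 (adjusted p = 0.043), each in the direction seen without regorafenib. Medag was at 0.64 (adjusted p = 0.072) and Hmox1 at 0.27 (adjusted p = 0.052). The NRF2 list had a median of 0.03 on top of regorafenib. Of its 20 members 1 was called higher and 1 lower there, against 0.966% and 2.25% of all genes. The 16 genes of the unfolded protein response had a median of -0.16, with 0 called higher and 4 lower against the same shares. In every line 1 of them was higher and 13 were lower, against 10.4% and 15.6% of all genes. The endothelial group had larger values here, with a list median of -1.25 and 6 of 9 tested markers called lower against 2.25% of all genes, among them Prox1 at -1.86 (adjusted p = 0.042), and Flt4 at -1.04 (adjusted p = 0.03). Line M3 went the other way: the summed level of the list was 2676, 48120, 12497 and 15040 CP20M with regorafenib and 3079, 28090, 2958 and 2930 with both drugs, only 2 markers were lower in every line, and Cdh5, Pecam1 and Flt4 differed by 0.30, 0.13 and 0.15 in M3. Other genes did not pass the test there, such as Cygb at 0.35 (adjusted p = 0.27), Lrrn4cl at -0.16 (adjusted p = 0.64), Il1rl1 at -0.17 (adjusted p = 0.75) and Nid2 at 0.00 (adjusted p = 0.99). Il1rl1 was already low with regorafenib alone, at 119, 80, 87 and 42 CP20M, against 102, 75, 103 and 20 with both drugs. At such levels a further fall is hard to see, so its value there says little.

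The difference between the 2 effects of autogramin-2, tested as an interaction, reached the threshold for 0 genes, with 704 (6.67%) at an unadjusted p below 0.05 and a smallest adjusted p of 0.416. The contrast of autogramin-2 with vehicle within this 16-library fit also gave 0 called genes, with 777 at an unadjusted p below 0.05.

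**Figure D5:**
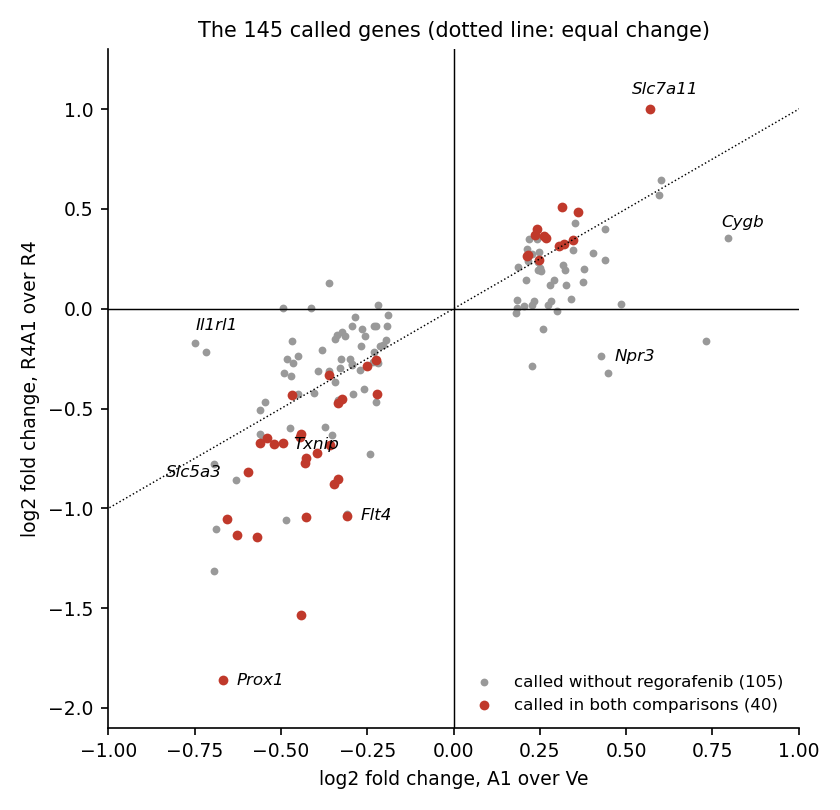
Log2 fold change of the 145 genes called for autogramin-2 alone (horizontal axis, A1 over Ve) against the change when autogramin-2 was added to 4 µM regorafenib (vertical axis, R4A1 over R4), with the 40 genes called in both in red and a dotted line at equal change. Most points lie in the lower left and upper right, 134 of 145 with the same sign, Prox1 and Flt4 lie far below the dotted line, and Npr3 and Lrrn4cl are among the few with opposite signs.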

How the data were processed

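The deposited table gave a signal value (CP20M) for each Ensembl gene in each library. To obtain it the authors used Trimmomatic 0.36 for trimming, STAR 2.5.3a for alignment to GRCm38 and HTSeq 0.9.1 for counting (versions per the submitters' processing notes), and scaled the counts to a library total of 20000000. Nearly all values fitted scaled counts that had been rounded up. In the 16 libraries used 99.615 to 99.951% of values above 0 were exactly a whole number of reads times the worth of 1 read, rounded up, from which the depths were recovered. Strand use in counting is not given in the sources used here, and no column of the fibroblast table was left unassigned (0 unused). The organoid table was not used here. The library of M3 with both drugs carries no line in its title and was placed by the name of the library.

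Values were analysed as log2(CP20M + 20) for genes with at least 200 CP20M in 2 or more of the 8 libraries, 10558 of the 52636 in the table, with limma 3.58.1 in R 4.3.3 (eBayes with trend, line as a block, Benjamini-Hochberg adjustment). A fold change on this scale understates the change of low genes. The libraries of a line come from the same mouse, and their deviations from the treatment means correlated with r = 0.894, 0.909, 0.738 and 0.951, against -0.801 to 0.407 between lines. The 16 libraries with and without 4 µM regorafenib were fitted in the same way. The fit was also run on simulated data with 200 changed genes, built from the means and spread of these libraries. Its result is not reported here. Promoters came from RefSeq (GRCm38.p6) and gene positions from GENCODE M21.

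Named genes were Gramd1a, Gramd1b and Gramd1c, the 12 largest called changes in each direction with 1 sign in 4 lines, up to 4 members of smallest p in each of 39 gene lists, and 3 genes picked by the study, of which some are not reported here, while any gene added after its values were seen is said to be so. Genes, lists and tests were chosen with earlier results of these data known. List members are described by counts and medians, with no test of the list. Python 3.11.15, numpy 2.4.6, pandas 2.3.3, scipy 1.17.1 and matplotlib 3.10.9 made the tables and plots.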

Additional observations from a re-analysis of the deposited data

Results flagged for a closer look

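In 14 of 212 groups of 4 libraries (6.6%, where chance flags about 1 in 20) the highest or lowest library stood apart from the other 3, in 8 cases a library of line M11. In M11 this was the level of Gramd1b with autogramin-2 (1153 CP20M against 423 to 546), of C77080 with vehicle (1769 against 615 to 663) and with autogramin-2 (2109 against 776 to 945), of Col10a1 with vehicle (1238 against 199 to 335), of Pdia4 with vehicle (5307 against 6658 to 6868), of Mcm6 with autogramin-2 (333 against 651 to 703), of Col5a2 with vehicle (27398 against 33453 to 33814) and of Egln3 with vehicle (224 against 472 to 510). In vehicle libraries of M3 it was the level of Cenpe (756 against 428 to 473), Wnt5a (4736 against 3521 to 3540) and Cxcl12 (4609 against 2031 to 2183). In the vehicle library of M3(2) it was the level of Id2 (618 against 187 to 197) and Flt4 (3122 against 888 to 1226), and in that of M1(2) the level of Medag (1121 against 476 to 560).

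Npr3 moved in opposite directions in every line, up with autogramin-2 alone and down when autogramin-2 was added to regorafenib. The difference between the 2 effects was -0.66 on the log2 scale and did not pass the limma interaction test after adjustment (adjusted p = 0.416).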

How the results depend on the processing

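The 145 calls for autogramin-2 (14 with 1.5-fold) depended on how the spread was estimated. Pseudocounts of 2 and 100 CP20M gave 138 (17) and 153 (3), and TMM scaling 185 (15), 81 higher and 104 lower, with 144 of the 145 among them. The number was 0 (0) with no replicate block, where the smallest adjusted p was 0.99992 and 22 of the 145 had an unadjusted p below 0.05. It was 0 (0) with all 19 libraries, where 112 of the 145 had an unadjusted p below 0.05 and all kept their sign, and with no filter on low values 4 (2) over 27782 genes. Chosen after seeing the data, the 16-library fit gave 0 (0), and eBayes without trend 0 (0) with 1529 at an unadjusted p below 0.05. Leaving out 1 line gave 7 to 117 (2 to 28). Genes higher in every line numbered 863, 1135 with TMM and 1124 to 1577 with 1 line left out, and lower ones 1573, 1391 with TMM and 2029 to 2923. For autogramin-2 on top of regorafenib the 340 calls (123 with 1.5-fold) became 349 (133), 293 (81) and 369 (109) with the pseudocounts and TMM, 0 (0) with no replicate block, 0 to 393 (0 to 229) with 1 line left out and 134 (79) from its 8 libraries alone. The interaction had 0 calls in every setting except without M3, where it had 1 (1). Of the named genes only Gramd1a without M1(2) (-0.0396) and Gramd1b without M3 (-0.0043) changed sign, with ranges of -0.0396 to 0.114 and -0.0043 to 0.0926 over the 4 lines left out. The median of all genes was -0.02, and -0.007 with TMM. The cause of these differences was not tested. The planned edgeR and DESeq2 fits were not run, because the apparent rounding up of the deposited values kept them from being accepted as whole reads.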

Other observations

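Other called genes, chosen after their values were seen, included further transporters and growth regulators. Slc38a2, a sodium-coupled carrier of neutral amino acids, was at 6878, 8058, 6124 and 5016 CP20M with vehicle and at 5423, 6755, 5101 and 3696 with autogramin-2 in M3, M3(2), M1(2) and M11 (limma, log2 -0.32 ± 0.042, adjusted p = 0.00646). Slc6a6, the taurine transporter, fell from 6240, 6777, 5781 and 7885 to 5180, 5637, 5275 and 6569 CP20M (log2 -0.23, adjusted p = 0.0205), and Sgk1, a kinase that controls ion transport, fell by 0.43 on the log2 scale (-0.43, adjusted p = 0.0198). All 3 were lower in every line. When autogramin-2 was added to regorafenib, Slc38a2 was at -0.45 (adjusted p = 0.04), Sgk1 at -1.04 (adjusted p = 0.037) and Slc6a6 at -0.22 (adjusted p = 0.062).

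Cdkn2a was at 3488, 3656, 3578 and 3507 CP20M with vehicle and at 4044, 4064, 4616 and 4340 with autogramin-2 (log2 0.26, adjusted p = 0.0205), and its neighbour Cdkn2b, which encodes the inhibitor INK4B, rose by 0.23 on the log2 scale (adjusted p = 0.0392). On top of regorafenib their log2 fold changes were -0.10 (adjusted p = 0.48) and -0.29 (adjusted p = 0.093). Igf1, a growth factor secreted by stromal cells, fell from 1734, 1387, 1316 and 899 to 1345, 935, 1157 and 710 CP20M (adjusted p = 0.0205) and Alcam, a cell adhesion molecule, from 1662, 2157, 1433 and 674 to 997, 1427, 1142 and 489 CP20M (adjusted p = 0.00623). Both were also called lower on top of regorafenib, at -0.68 each (adjusted p = 0.01 and 0.0026). Itga8, an integrin subunit of mesenchymal cells, Pawr, a regulator of apoptosis, and Sod3, the extracellular superoxide dismutase, had log2 fold changes of -0.54, -0.56 and -0.40. Of the 4 fits that left out 1 line, Alcam and Slc38a2 were called in 3, Cdkn2a, Igf1, Itga8, Sgk1 and Slc6a6 in 2, and Cdkn2b, Pawr and Sod3 in 0.

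The largest rise of any gene tested was not called. This was AY036118, a transcript resembling ribosomal RNA that was named after its values were seen. It was at 2740, 4640, 22354 and 11116 CP20M with vehicle and at 34502, 18319, 14589 and 3258 with autogramin-2, higher in M3 and M3(2) and lower in M1(2) and M11 (log2 0.81, adjusted p = 0.575).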
